A study of Mus musculus with 7 samples.

Results

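The nuclear-encoded oxidative phosphorylation genes are the chromosomal genes for the subunits of the mitochondrial respiratory chain and of ATP synthase. They were chosen by name alone, as the protein-coding genes of the deposited mouse table whose symbols begin with Nduf (families a, b, c, s and v), Uqcr, Cox4 to Cox8 followed by a, b or c, or Atp5, or are Sdha, Sdhb, Sdhc or Sdhd. This gave 84 of the 45777 genes in the table, of which 39 belong to complex I, 4 to complex II, 8 to complex III, 16 to complex IV and 17 to complex V. The symbol pattern leaves out a few true subunits (Cox4i1, Ndufab1 and Cyc1 among them), some of which are given apart. Ndufa4 is counted with complex I by its symbol, although later nomenclature places its protein in complex IV.

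The RNA came from mouse PBMCs, the mononuclear fraction of blood and by definition its lymphocytes and monocytes, sampled in week 8 of repeated bleeding. The 6 collected groups were FV (facial vein), RP (retroorbital plexus) and TV (tail vein), each with and without ibuprofen, a cyclooxygenase inhibitor, and the control group was Non. Every group is 1 library, so the 7 libraries hold no replicates. The sources used here do not give the mice's strain, sex or age, the ibuprofen dose, the handling of Non mice or whether animals were pooled. Differences between a pair of libraries are therefore given without a test, and tests use the libraries of different routes in place of replicates.

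Complex I oxidises NADH and complex II oxidises succinate, complex III passes the electrons from ubiquinol to cytochrome c, and complex IV hands them to oxygen, while complexes I, III and IV pump protons that drive ATP synthesis by complex V. All but complex II combine nuclear subunits with a few encoded by mitochondrial DNA. Resting lymphocytes and monocytes make much of their ATP this way, platelets and reticulocytes (young red cells) still carry mitochondria and some nuclear transcripts, and mature red cells have neither. In such bulk RNA, fewer cells of a type and less RNA per cell cannot be told apart.

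Library totals lay between 47903611 counts (FV without ibuprofen) and 63801032 counts (RP without ibuprofen). A list of 25 erythroid genes, mostly globin mRNA by count, held 48.6% (FV with ibuprofen) to 74.2% (TV without ibuprofen) of a library. Libraries were put on one scale by TMM, which sets them against one another on the bulk of their genes, and CPM is the count relative to that scaled library size. On the unscaled totals, the median of all genes in TV without ibuprofen against Non was -1.08 on the log2 scale, and TMM brought it to -0.061, so every level and difference here is relative to the bulk of genes. TV without ibuprofen had the smallest scaled library, in which 10 CPM stood for 327 counts (exact 95% Poisson interval 293 to 364). Intervals of this kind cover counting error only. A mean of at least 1 CPM was reached by 76 of the 84 members, among 11804 such genes.

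Genes for respiratory chain subunits often carry near their start the motif of NRF1 (nuclear respiratory factor 1), and motifs of ETS factors such as GABP, of YY1 and of Sp1 are frequent there too. Promoter entries (250 bases before to 50 bases after the RefSeq gene start, GRCm38.p6) were matched for 69 of the 84 members, 65 of them past the 1 CPM limit. The 10-letter NRF1 motif (its letters are the capitals shown next, with any base at position 6), sought like the others on both strands, was found in 17 of these 65 promoters (26.2%), against 12% of the 9024 tested genes with an entry and 5.19% of all 27025 genes with one. CCGGAAG (ETS family) was found in 26.2%, against 21.3% and 9.93%, and the YY1 motif in 7.69%, against 2.65% and 0.995%. GGGCGG (Sp1) was found in 41.5% of the members, against 67.5% of tested genes and 38.2% of all. In 1 of the 65 promoters, matches of different motifs overlapped. The 6 stretches of 120 bases shown next are those of the members with an NRF1 match before the start that had the 3 highest (Cox6a1, Atp5k and Atp5h) and the 3 lowest (Ndufb4, Sdha and Atp5g2) differences between TV without ibuprofen and Non. They were chosen among members with the motif, and Cox6b2 and Cox5a, among the highest in that comparison, and Ndufa12 and Ndufs3, among the lowest, have no NRF1 match in this window. The stretches are printed 5′ to 3′ on the gene's strand (minus for all 6), and capitals mark the NRF1 letters.
Cox6a1, chr5:115349011-115349130: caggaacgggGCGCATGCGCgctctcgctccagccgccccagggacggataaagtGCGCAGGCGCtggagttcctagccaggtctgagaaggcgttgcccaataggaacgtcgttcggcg
Atp5k, chr5:108434400-108434519: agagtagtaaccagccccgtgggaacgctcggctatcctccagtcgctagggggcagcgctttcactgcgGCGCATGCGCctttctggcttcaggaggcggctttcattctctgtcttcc
Atp5h, chr11:115419996-115420115: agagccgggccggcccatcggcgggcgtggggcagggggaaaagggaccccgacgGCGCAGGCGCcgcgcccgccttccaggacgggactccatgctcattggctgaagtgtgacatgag
Ndufb4, chr16:37654369-37654488: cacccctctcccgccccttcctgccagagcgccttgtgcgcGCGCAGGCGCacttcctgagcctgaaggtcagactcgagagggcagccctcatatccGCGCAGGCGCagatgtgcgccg
Sdha, chr13:74350241-74350360: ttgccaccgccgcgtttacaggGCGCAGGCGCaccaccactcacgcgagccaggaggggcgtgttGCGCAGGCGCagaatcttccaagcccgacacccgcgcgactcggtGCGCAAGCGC
Atp5g2, chr15:102671048-102671167: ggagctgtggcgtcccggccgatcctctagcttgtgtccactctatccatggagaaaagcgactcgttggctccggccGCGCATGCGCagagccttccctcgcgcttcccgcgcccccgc
Cox6a1 has 2 such sites in its stretch and stood 1.00 above Non on the log2 scale in TV without ibuprofen, whereas Sdha has 3 and stood at -0.12. The median difference in that comparison was 0.14 over the 17 members with the NRF1 letters and 0.32 over the 48 without them. For the ETS letters it was 0.48 over the 17 with them and 0.16 over the 48 without. These are matches of letters, and binding was not measured.

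Levels of different genes can be compared only per length, which the authors' TPM, a length-corrected level, allows. In Non, Atp5b, the catalytic beta subunit of ATP synthase, had the highest level of the members at 149.5 TPM, followed by Atp5l at 112 TPM and Uqcrh, the hinge protein of complex III, at 97.2 TPM. In complex IV the highest level in Non was 76.3 TPM for Cox6a1. The highest in complex I was 46.9 TPM for Ndufa4, and in complex II Sdhb and Sdha lay close together at 18.5 and 18.4 TPM. The alpha and beta subunits sit in ATP synthase in equal number, yet Atp5a1 (alpha) had 57.4 TPM beside the 149.5 TPM of Atp5b (beta) in Non. The same order held in TV without ibuprofen, with 26.2 TPM for Atp5a1 and 116 TPM for Atp5b.

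The isoforms known from other tissues were near or at 0. Cox7b2 and Cox8c (testis), Cox8b (muscle and brown fat) and Ndufa4l2 (induced by hypoxia) had 0 counts in all 7 libraries, where 3 counts would equal 0.0383 to 0.0916 CPM. Cox7a1, of heart and skeletal muscle, had at most 0.0916 CPM, and Cox6a2, the striated muscle partner of Cox6a1, had 0.154 to 0.607 CPM. Ndufb4b and Ndufb4c, copies of Ndufb4, stayed between 0.408 and 0.719 CPM, and counts of near-identical copies can be split between them. Cox6b2, best known as the testis form of Cox6b1, was the exception among tissue isoforms, with 6.99 to 21.4 CPM.

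Most members shared their lowest library. Of the 76 members, 60 had a highest library under 2 times their lowest, and 16 had a ratio of at least 2, led by Cox6b2 (3.06), Cox5a (2.90), Ndufa1 (2.62), Uqcr11 (2.47) and Ndufs4 (2.36). The flattest were Uqcrc2 and Ndufv1, both with a ratio of 1.11. No share of all genes stands beside these ratios, so they are not read as a result about the members. RP without ibuprofen was the lowest library for 57 members (75%), against 11.4% of all genes. FV without ibuprofen was the highest for 28 members (36.8% against 20.8% of all genes) and TV without ibuprofen for 31 (40.8% against 17.6%). Non was the highest library for no member and the lowest for 4. On unscaled totals, 2 members were lowest in RP without ibuprofen (2.63% against 0.881% of all genes). With TV without ibuprofen left out, 61 were (80.3% against 16% of all genes).

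As a share of counts outside the erythroid list, the members together took 0.535% (95% Wilson interval 0.532 to 0.538) in FV with ibuprofen and 0.569% (0.566 to 0.572) in FV without. In RP they took 0.559% (0.556 to 0.563) with ibuprofen and 0.483% (0.481 to 0.486) without. In TV they took 0.576% (0.573 to 0.580) with ibuprofen and 0.569% (0.565 to 0.573) without, and in Non 0.550% (0.547 to 0.553). The share in RP without ibuprofen lay below all others beyond counting error, and the other 6 libraries stood within a narrow band.

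**Figure D1:**
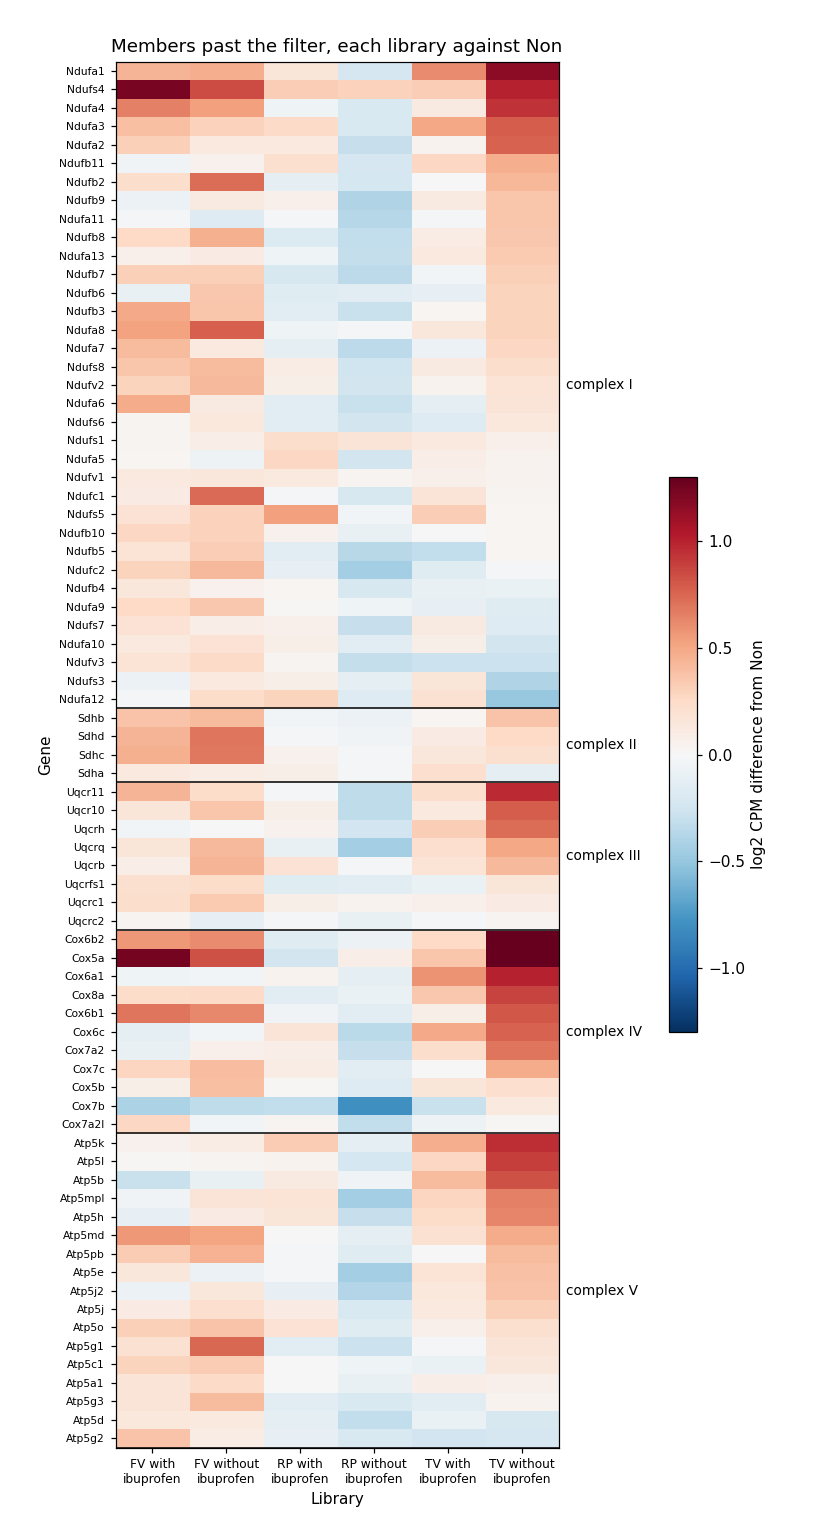
Each row is 1 of 75 members past the filter, grouped by complex and ordered within it by TV without ibuprofen, and each column is a library. Colour gives the log2 difference in TMM-scaled CPM from Non (red above, blue below). The RP without ibuprofen column is mostly blue, with 71 of all 76 members below Non, and the darkest reds in TV without ibuprofen are Cox6b2 and Cox5a.

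Against Non, the members stood higher by their median in both FV libraries, lower in RP without ibuprofen and higher in TV without ibuprofen. Their summed share of counts outside the erythroid list went the other way in FV with ibuprofen, at 0.535% against 0.550% in Non. In FV with ibuprofen the median log2 difference was 0.18 over the members and 0.039 over all genes, and 61 of 76 members were above 0 (background 54.1%). In FV without ibuprofen it was 0.25 against 0.0091 for all genes, with 66 of 76 above 0 (background 50.6%). In RP with ibuprofen it was 0.012, next to -0.0016 for all genes, with 40 above 0 (background 49.6%). In RP without ibuprofen it was -0.20 against 0.014, and 71 of 76 were below 0 (background 47.5%). In TV with ibuprofen it was 0.11 against -0.0047, with 55 above 0 (background 49%). In TV without ibuprofen it was 0.29 against -0.061, with 65 of 76 above 0 (background 45.6%). All 6 comparisons share the 1 Non library. The signs of the set medians are on the TMM scale: on unscaled totals those of RP with ibuprofen and of both TV libraries turned negative, while the members' median less that of all genes kept its sign in all 6. On the authors' TPM with a pseudocount of 1, that excess over all genes in TV without ibuprofen turned to -0.064, and with a pseudocount of 0.05 it was 0.31.

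The differences were small for most members. At least 1.5-fold higher than Non were 4 of 76 members in FV with ibuprofen (background 13.3%), 10 in FV without ibuprofen (15.2%), 0 in both RP libraries (2.29% with and 3.08% without), 1 in TV with ibuprofen (4.27%) and 20 in TV without ibuprofen (17.4%). The count in FV without ibuprofen, 10 of 76, lies near its background, and that in FV with ibuprofen lies below it. Only Cox7b, in RP without ibuprofen, was at least 1.5-fold lower in any of the 6 comparisons (backgrounds 5.49% and 10.7% in FV with and without ibuprofen, 4.07% and 3.22% for the RP pair, 2.44% and 13.5% for the TV pair). At least 2-fold higher in TV without ibuprofen were 4 members, Cox6b2, Cox5a, Ndufa1 and Cox6a1 (background 8.63%), and in FV with ibuprofen Cox5a and Ndufs4 (background 5.7%).

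**Figure D2:**
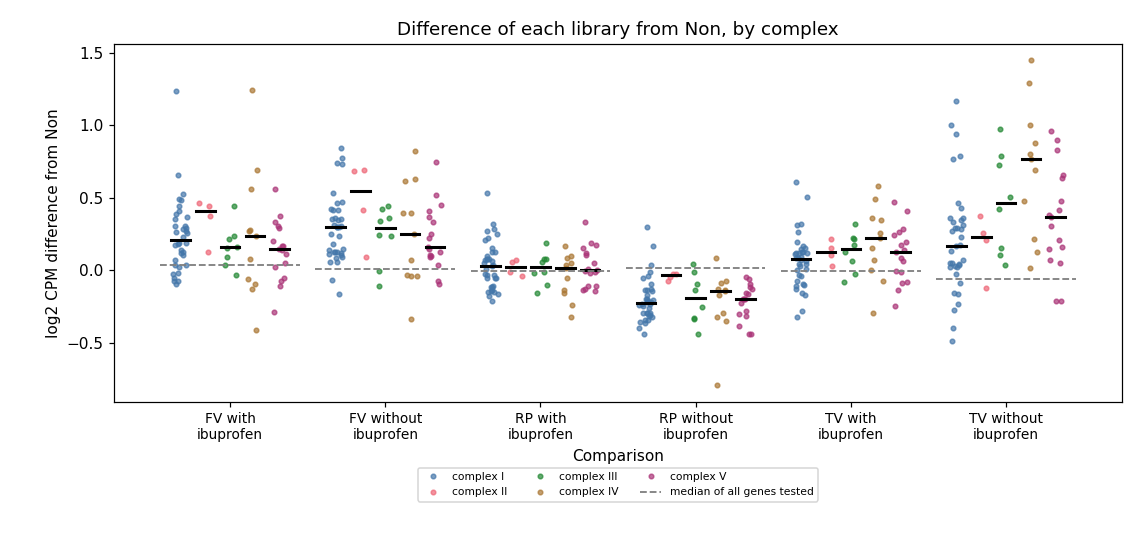
Points are the 76 members past the filter, coloured by complex, with the log2 difference in TMM-scaled CPM from Non on the vertical axis for each of the 6 collected libraries. Black bars are medians per complex and the dashed line is the median of all genes tested. On this scale complex IV has the highest median in TV without ibuprofen (0.77) and complex II in FV without ibuprofen (0.55), and all 5 medians in RP without ibuprofen lie below 0.

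Complex I, the largest, has a catalytic core and many accessory subunits. The 7 core subunits that carry the flavin and the iron-sulphur clusters or line the quinone site (Ndufs1, Ndufs3 and Ndufv1 among them) had a median difference from Non of 0.19 in FV with and 0.15 in FV without ibuprofen. In RP the core median was 0.079 with and -0.14 without ibuprofen, while the 28 accessory subunits (Ndufa4 apart) stood at -0.0092 and -0.24. In TV the core median was 0.11 with and 0.051 without ibuprofen, while the accessory subunits stood at 0.034 and 0.28. Ndufs1, which carries iron-sulphur clusters, had 22.4 and 23.1 CPM in FV with and without ibuprofen, 25.4 and 24.5 CPM in RP with and without ibuprofen, 23.7 and 22.8 CPM in TV with and without ibuprofen, and 21.8 CPM in Non, and these 7 values span a ratio of less than 1.2. Ndufs3 ran the other way from most members in TV, with 10.4 and 11.98 CPM in FV with and without ibuprofen, 11.6 and 10.01 CPM in RP with and without ibuprofen, 12.2 and 8.34 CPM in TV with and without ibuprofen, and 10.97 CPM in Non, so that TV without ibuprofen was its lowest library.

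Ndufs4 and Ndufa1 had the widest ranges in complex I. Ndufs4, an accessory subunit of the NADH-oxidising arm whose loss causes a Leigh-like disease in mice, had 21.6 and 16.4 CPM in FV with and without ibuprofen, 11.4 and 11.3 CPM in RP with and without ibuprofen, 11.4 and 18.3 CPM in TV with and without ibuprofen, and 9.15 CPM in Non. Non was its lowest library, and FV with ibuprofen was highest at 1.24 above Non on the log2 scale. Ndufa1, an X-linked subunit of the membrane arm, had 21.1 and 21.6 CPM in FV with and without ibuprofen, 17.3 and 13.3 CPM in RP with and without ibuprofen, 23.7 and 34.9 CPM in TV with and without ibuprofen, and 15.5 CPM in Non. It was highest in TV without ibuprofen and lowest in RP without ibuprofen. Its span overlaps that of Rnf113a1, one of 28 members whose span overlaps another annotated gene, and use of strand in the counting is not stated.

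Ndufa4, left out of both of these counts, had 38.9 and 35.7 CPM in FV with and without ibuprofen, 23.8 and 21.5 CPM in RP with and without ibuprofen, 26.8 and 47.3 CPM in TV with and without ibuprofen, and 24.7 CPM in Non. High libraries were TV without ibuprofen and both FV libraries, and the remaining 4 lay close together. Ndufa8, of the membrane arm, had 11.8 and 14.1 CPM in FV with and without ibuprofen, 7.91 and 8.13 CPM in RP with and without ibuprofen, 9.09 and 10.02 CPM in TV with and without ibuprofen, and 8.20 CPM in Non, so that both FV libraries exceeded all others. Ndufa12, which sits where the arms of the complex meet, had 5.00 and 5.98 CPM in FV with and without ibuprofen, 6.20 and 4.52 CPM in RP with and without ibuprofen, 5.83 and 3.60 CPM in TV with and without ibuprofen, and 5.08 CPM in Non. TV without ibuprofen was the lowest library for Ndufa12, opposite to Ndufa1 and Ndufa4, and its difference from Non was -0.49. Among the 36 complex I members past the filter, 8 were below Non in TV without ibuprofen (background 54.3%) and 2 in FV without ibuprofen (background 49.4%).

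Complex II, the succinate dehydrogenase of the citric acid cycle, split between its catalytic flavoprotein and the other 3 subunits. Sdha, the flavoprotein, had 60.7 and 59.4 CPM in FV with and without ibuprofen, 58.6 and 54.9 CPM in RP with and without ibuprofen, 64.9 and 51.2 CPM in TV with and without ibuprofen, and 55.7 CPM in Non. It was highest in TV with ibuprofen and lowest in TV without, within a narrow range. Sdhb, the iron-sulphur subunit, had 27.4 and 28.1 CPM in FV with and without ibuprofen, 20.5 and 20.1 CPM in RP with and without ibuprofen, 21.5 and 27.3 CPM in TV with and without ibuprofen, and 21.1 CPM in Non. Of the membrane anchors, Sdhc had 14.1 and 16.4 CPM in FV with and without ibuprofen, 10.6 and 10.1 CPM in RP with and without ibuprofen, 11.4 and 11.8 CPM in TV with and without ibuprofen, and 10.2 CPM in Non, and Sdhd had 21.2 and 25.2 CPM in FV with and without ibuprofen, 15.5 and 15.1 CPM in RP with and without ibuprofen, 16.8 and 18.6 CPM in TV with and without ibuprofen, and 15.6 CPM in Non. For both anchors the FV libraries were the highest pair, with differences from Non of 0.46 and 0.44 with and 0.68 and 0.69 without ibuprofen. Sdha stood at 0.12 and 0.093 in the same libraries.

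In complex III the small subunits varied more between libraries than the large ones. Uqcrc1 and Uqcrc2 are the large core proteins on the matrix side. Uqcrc2 had 33.5 and 30.3 CPM in FV with and without ibuprofen, 32.2 and 30.6 CPM in RP with and without ibuprofen, 32.1 and 33.5 CPM in TV with and without ibuprofen, and 32.6 CPM in Non, a flat profile. Uqcrc1 had 40.7 and 43.8 CPM in FV with and without ibuprofen, 36.5 and 35.7 CPM in RP with and without ibuprofen, 36.1 and 37.2 CPM in TV with and without ibuprofen, and 34.6 CPM in Non, with both FV libraries on top. Uqcrfs1, the Rieske iron-sulphur protein, ran from 17.6 CPM in RP with ibuprofen to 23.1 CPM in FV without. By contrast Uqcrh, which bridges to cytochrome c, had 54.8 and 55.99 CPM in FV with and without ibuprofen, 58.5 and 47.2 CPM in RP with and without ibuprofen, 69.97 and 93.01 CPM in TV with and without ibuprofen, and 56.1 CPM in Non. Uqcr11, a small membrane subunit, had 13.8 and 12.002 CPM in FV with and without ibuprofen, 10.1 and 8.09 CPM in RP with and without ibuprofen, 11.9 and 20.01 CPM in TV with and without ibuprofen, and 10.2 CPM in Non, and Uqcr10 had 11.6 and 13.4 CPM in FV with and without ibuprofen, 10.98 and 8.24 CPM in RP with and without ibuprofen, 11.4 and 17.96 CPM in TV with and without ibuprofen, and 10.4 CPM in Non. All 3 were highest in TV without ibuprofen and lowest in RP without, and in TV without ibuprofen their differences from Non were 0.73, 0.97 and 0.79.

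Complex IV, cytochrome c oxidase, held the members with the widest ranges, Cox6b2 and Cox5a. In TV without ibuprofen all 11 members past the filter were above Non (background 45.6%) and 7 were at least 1.5-fold above it (background 17.4%). Cox5a, which faces the matrix and binds the core, had 51.8 and 38.7 CPM in FV with and without ibuprofen, 18.6 and 23.2 CPM in RP with and without ibuprofen, 28.1 and 53.7 CPM in TV with and without ibuprofen, and 21.9 CPM in Non. It was high in TV without ibuprofen and in both FV libraries, low in both RP libraries and Non. Cox6b2 had 11.5 and 11.98 CPM in FV with and without ibuprofen, 6.99 and 7.42 CPM in RP with and without ibuprofen, 9.35 and 21.4 CPM in TV with and without ibuprofen, and 7.81 CPM in Non, in much the same order of libraries, and Cox6b1, its widely expressed partner on the cytochrome c side, had 41.5 and 39.6 CPM in FV with and without ibuprofen, 24.7 and 23.4 CPM in RP with and without ibuprofen, 26.97 and 44.7 CPM in TV with and without ibuprofen, and 25.6 CPM in Non. The difference of TV without ibuprofen from Non was 1.45 for Cox6b2 and 0.80 for Cox6b1. Cox6b2 overlaps no other annotated gene.

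A second pattern within complex IV set both TV libraries above the rest. Cox6a1, the widely expressed form of the regulatory subunit 6a whose promoter is shown above, had 43.96 and 44.6 CPM in FV with and without ibuprofen, 47.4 and 41.9 CPM in RP with and without ibuprofen, 68.6 and 91.8 CPM in TV with and without ibuprofen, and 45.8 CPM in Non. Both TV libraries exceeded the other 5, which lay within 6 CPM of each other. Cox6c had 32.7 and 34.97 CPM in FV with and without ibuprofen, 40.2 and 28.1 CPM in RP with and without ibuprofen, 50.4 and 61.1 CPM in TV with and without ibuprofen, and 35.8 CPM in Non, and again both TV libraries were on top. Cox8a, the only subunit 8 isoform detected, had 46.9 and 47.2 CPM in FV with and without ibuprofen, 36.2 and 37.3 CPM in RP with and without ibuprofen, 50.6 and 73.2 CPM in TV with and without ibuprofen, and 39.7 CPM in Non, with TV without ibuprofen above the rest. Cox7a2, the form of subunit 7a outside muscle, had 20.4 and 22.9 CPM in FV with and without ibuprofen, 23.1 and 17.7 CPM in RP with and without ibuprofen, 25.5 and 35.3 CPM in TV with and without ibuprofen, and 21.8 CPM in Non.

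Cox7b and Cox7a2l departed from both patterns. Cox7b, an X-linked subunit, had 25.9 and 27.4 CPM in FV with and without ibuprofen, 27.6 and 19.9 CPM in RP with and without ibuprofen, 28.2 and 37.8 CPM in TV with and without ibuprofen, and 34.5 CPM in Non, so Non was second only to TV without ibuprofen, and RP without ibuprofen stood -0.79 from Non, the lowest difference of any member against Non. Cox7a2l, whose protein helps to join complexes III and IV into supercomplexes, had 70.8 and 57.1 CPM in FV with and without ibuprofen, 60.04 and 46.8 CPM in RP with and without ibuprofen, 55.8 and 59.3 CPM in TV with and without ibuprofen, and 58.6 CPM in Non. It was highest in FV with ibuprofen and, like most members, lowest in RP without.

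**Figure D3:**
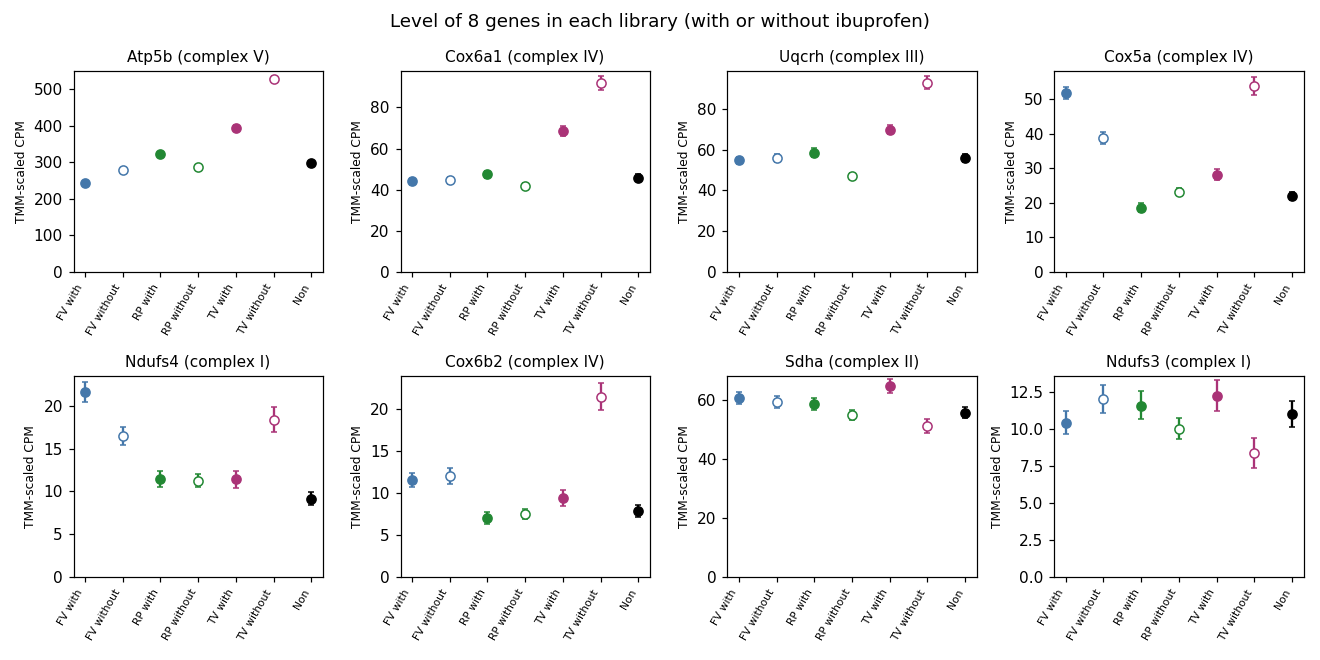
Level of 8 members in TMM-scaled CPM (vertical axis, from 0) in each library, filled for with ibuprofen and for Non (black), open for without ibuprofen. Bars are exact 95% Poisson intervals, for counting error only. Atp5b, Cox6a1 and Uqcrh are highest in both TV libraries, Cox5a, Ndufs4 and Cox6b2 are high in FV and in TV without ibuprofen, and Sdha and Ndufs3 are lowest in TV without ibuprofen.

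In complex V the catalytic beta subunit stood out from the rest of the F1 head. Atp5b had 243 and 279 CPM in FV with and without ibuprofen, 323 and 288 CPM in RP with and without ibuprofen, 395 and 528 CPM in TV with and without ibuprofen, and 297 CPM in Non. Both TV libraries were above all others and both FV libraries were the lowest pair. Atp5a1, the alpha subunit of the same hexamer, had 166 and 176 CPM in FV with and without ibuprofen, 148 and 138 CPM in RP with and without ibuprofen, 156 and 155 CPM in TV with and without ibuprofen, and 148 CPM in Non, with both FV libraries on top and TV near Non. The ratio of the highest to the lowest library was 2.17 for Atp5b. Of the central stalk, Atp5d (delta) had 34.7 and 34.4 CPM in FV with and without ibuprofen, 28.8 and 25.3 CPM in RP with and without ibuprofen, 29.8 and 27.2 CPM in TV with and without ibuprofen, and 31.5 CPM in Non, with differences in TV without ibuprofen of -0.21 for Atp5d and 0.38 for Atp5e (epsilon).

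Atp5l and Atp5k encode small subunits of the membrane part of ATP synthase. Atp5l (subunit g) had 61.6 and 62.2 CPM in FV with and without ibuprofen, 62.9 and 51.9 CPM in RP with and without ibuprofen, 73.1 and 113 CPM in TV with and without ibuprofen, and 60.7 CPM in Non, and Atp5k (subunit e), whose promoter is shown above, had 11.8 and 12.1 CPM in FV with and without ibuprofen, 14.3 and 10.4 CPM in RP with and without ibuprofen, 15.8 and 22.2 CPM in TV with and without ibuprofen, and 11.4 CPM in Non. For both, the highest library was TV without ibuprofen and the next was TV with ibuprofen. Atp5h, of the peripheral stalk, had 50.9 and 58.8 CPM in FV with and without ibuprofen, 61.02 and 44.5 CPM in RP with and without ibuprofen, 64.8 and 85.3 CPM in TV with and without ibuprofen, and 54.8 CPM in Non, in the same order at the top. The 3 genes of the c ring, which encode the same mature protein, all had both FV libraries on top. Atp5g1 had 9.96 and 14.6 CPM in FV with and without ibuprofen, 7.87 and 7.12 CPM in RP with and without ibuprofen, 8.58 and 9.71 CPM in TV with and without ibuprofen, and 8.67 CPM in Non, Atp5g2 had 32.2 and 26.5 CPM in FV with and without ibuprofen, 23.1 and 21.6 CPM in RP with and without ibuprofen, 20.9 and 21.4 CPM in TV with and without ibuprofen, and 24.8 CPM in Non, and Atp5g3 had 22.5 and 26.7 CPM in FV with and without ibuprofen, 18.2 and 17.5 CPM in RP with and without ibuprofen, 18.3 and 20.7 CPM in TV with and without ibuprofen, and 20.1 CPM in Non. FV without ibuprofen was the highest library for Atp5g1 and Atp5g3, and FV with ibuprofen was the highest for Atp5g2, which alone of the 3 was below Non in both TV libraries. Processed copies of such genes elsewhere in the genome can take a part of their reads.

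Ibuprofen was compared with its absence within each route. The members' median log2 difference in FV was -0.055 (0.040 over all genes), in RP 0.19 (-0.011) and in TV -0.24 (0.038). In TV their summed share of counts outside the erythroid list was not lower with ibuprofen, at 0.576% against 0.569% without. In FV 23 of 76 members were above 0 (background 55.8%), in RP 70 (background 48.2%) and in TV 14 (background 53%). Above 0 in RP and below 0 in TV were 56 members (73.7%), against 17.3% of all genes. On unscaled totals the count was 3 members (3.95%, against 1.88% of all genes). The medians of all genes on those totals were themselves -0.31 in RP and 0.67 in TV. At least 1.5-fold lower with ibuprofen were 1 member in FV (background 4.93%), 0 in RP (background 6.62%) and 9 in TV (background 15.9%), so that the share in TV lay below the background. At least 1.5-fold higher were 0 in FV (background 7.4%), Atp5mpl in RP (background 4.04%) and Ndufa12 in TV (background 12.6%).

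By complex, the ibuprofen difference in TV was -0.17 for complex I, -0.10 for II, -0.27 for III, -0.47 for IV and -0.23 for V. The 9 members at least 1.5-fold lower in TV with ibuprofen included Cox6b2 (-1.19, from the values given above), Cox5a (-0.93), Ndufa4 (-0.82) and Uqcr11 (-0.75). Higher with ibuprofen in TV were Ndufa12 (0.69), Ndufs3 (0.55) and Sdha (0.34). In RP the largest differences were 0.61 for Atp5mpl, a small ATP synthase subunit, and 0.57 for Ndufs5, with Cox5a lowest at -0.32. In FV they ran from -0.63 for Ndufc1 and -0.55 for Atp5g1 to 0.39 for Ndufs4 and 0.42 for Cox5a. Cox5a was thus higher with ibuprofen in FV and lower with it in RP and TV.

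**Figure D4:**
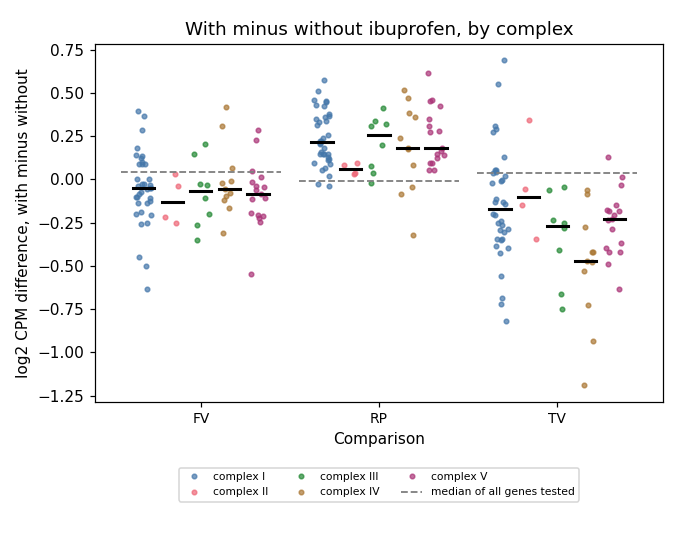
Log2 difference in TMM-scaled CPM with minus without ibuprofen (vertical axis) within FV, RP and TV, for the 76 members coloured by complex. Black bars are medians per complex and dashed lines medians of all genes tested. On this scale all 5 complex medians lie above 0 in RP and below 0 in FV and TV, with the lowest, -0.47, for complex IV in TV.

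No member passed an adjusted p of 0.05 in any of the 5 tested comparisons (edgeR's quasi-likelihood test, Benjamini-Hochberg over all genes, 2 residual degrees of freedom). What these fits take as spread is how far ibuprofen differences varied from route to route, so the p-values say nothing of variation between mice. For ibuprofen over the 3 routes, 0 of 76 members had an unadjusted p under 0.05 (background 10.6% of 11774 genes). Of all 11774 genes, edgeR called 0, DESeq2 110 and limma-voom 2 at an adjusted p under 0.05, and none of these tools called a member. The lowest member adjusted p was 0.553 by edgeR, for Ndufs7 of the core at 0.25 ± 0.13. Above 0 were 35 of 76 members (background 52.2%). The median fitted difference of the members was -0.037. It was 0.0042 without both FV libraries, -0.18 without both RP libraries and 0.082 without both TV libraries. The fitted difference with ibuprofen was -0.44 ± 0.25 (SE) for Cox6b2, adjusted p = 0.568 by edgeR, and 0.29 ± 0.22 for Ndufa12, adjusted p = 0.651 by edgeR. Cox6b2 was lower with ibuprofen in 3 of 3 routes, but only by -0.055 in FV and -0.086 in RP, beside -1.19 in TV. For collection without ibuprofen against Non, 0 of 76 members had an unadjusted p under 0.05 (background 7.75% of 11804 genes, 4.57% higher and 3.18% lower, with 0.00847% at an adjusted p under 0.05), although 59 were above 0 (background 49.2%). The members' median was 0.13, and it was 0.029 without the FV without ibuprofen library, 0.30 without that of RP and 0.026 without that of TV. There, Cox5a had a fitted difference of 0.76 ± 0.37, adjusted p = 0.625 by edgeR, Ndufs4 had 0.73 ± 0.32, adjusted p = 0.625 by edgeR, and Cox7b, the lowest, had -0.32 ± 0.26, adjusted p = 0.712 by edgeR. Cox5a and Ndufs4 were above Non in 3 of 3 routes, although in RP without ibuprofen only by 0.086 for Cox5a and 0.30 for Ndufs4. Cox7b was below Non in FV and RP and above it in TV.

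Between routes, averaged over ibuprofen, FV and TV both stood above RP. In FV minus RP the members' median was 0.32 against 0.027 for all genes, 68 of 76 were above 0 (background 52.3%), and 23 were higher and 0 lower at an unadjusted p under 0.05 (background 16.2% higher and 8.67% lower). None passed the adjusted threshold. The lowest adjusted p was 0.0990 by edgeR for Ndufa8, at 0.69 ± 0.16, followed by Sdhd at 0.60 ± 0.16, adjusted p = 0.113, and Cox5a at 1.15 ± 0.31, adjusted p = 0.114, in the same edgeR fit. In TV minus RP the median was 0.26 against -0.041 for all genes, 67 of 76 were above 0 (background 45.4%), and 18 were higher and 0 lower at an unadjusted p under 0.05 (background 9.16% and 4.21%). The lowest member adjusted p by edgeR was 0.370, reached by Cox6a1 at 0.84 ± 0.19. The comparisons with RP share both RP libraries, so their values are side by side and not independent.

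Between TV and FV the members' counts lay near the background. In TV minus FV the median was -0.14 against -0.069 for all genes, 29 of 76 members were above 0 (background 39.4%), and 5 were higher and 5 lower at an unadjusted p under 0.05 (background 4.72% and 6.17%). Higher in TV were Cox6a1 at 0.85 ± 0.19, Atp5b at 0.82 ± 0.22, Cox6c at 0.72 ± 0.22, Atp5k at 0.66 ± 0.24 and Uqcrh at 0.55 ± 0.21. Lower in TV were Atp5g2 at -0.47 ± 0.16, Ndufa9 at -0.44 ± 0.16, Ndufv3 at -0.50 ± 0.18, Ndufa8 at -0.44 ± 0.16 and Sdhd at -0.39 ± 0.16. The lowest adjusted p was 0.249 by edgeR, for Cox6a1. DESeq2 called Cox6a1 (0.92, adjusted p = 0.0158) and Atp5b (0.88, adjusted p = 0.0173) in TV minus FV, Cox6a1 in TV minus RP (0.87, adjusted p = 0.0453) and Cox5a in FV minus RP (1.12, adjusted p = 0.0205). Over all genes DESeq2 called 1076 in FV minus RP, 158 in TV minus RP and 318 in TV minus FV, where edgeR called 0 in each at this many residual degrees of freedom and limma-voom 188, 0 and 7.

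The members' transcripts are short, with a median implied length of 816 bases against 3213 for all genes tested, and their differences ran with length in some libraries. As a description across genes, which are not independent and share each library, Spearman's rho between length and the difference from Non in RP without ibuprofen was 0.281 over the 76 members and 0.327 over all 11804 genes. In TV without ibuprofen it was -0.429 over the members and -0.108 over all genes. The members shorter than the median had a median difference of 0.45 in TV without ibuprofen, and those at or over it 0.16. With minus without ibuprofen, rho was -0.331 over the members and -0.335 over all genes in RP, and 0.407 and 0.064 in TV. The part of length in the members' differences was not tested.

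**Figure D5:**
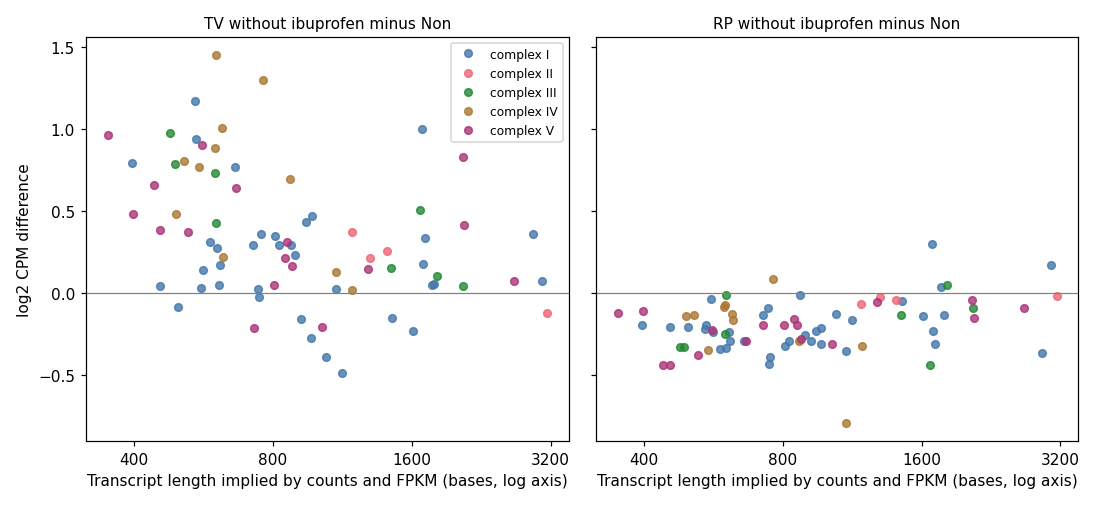
Transcript length implied by the counts and the authors' FPKM (bases, log axis) against the log2 difference in TMM-scaled CPM from Non, for TV without ibuprofen (left) and RP without ibuprofen (right). Each point is a member, coloured by complex. In TV without ibuprofen the members above 0.5 are mostly shorter than 900 bases, with Ndufs4 and Atp5b among the exceptions.

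Levels of blood cell marker lists differed between the same libraries. All 19 listed platelet genes passed the filter, and their summed level was 6450 CPM in FV with ibuprofen, 4932 in FV without, 1574 in RP with, 2483 in RP without, 3163 in TV with, 8393 in TV without and 2041 in Non. The 15 classical monocyte genes summed to 6606, 8637, 2311, 3242, 3447, 6616 and 3431 CPM in the same order of libraries. The 18 T cell genes summed to 954, 689, 1463, 999.5, 1316, 589 and 1225 CPM, and the 15 B cell genes to 1004, 615, 1804, 1869, 1513, 1003.5 and 1562 CPM, again in that order. Platelet and monocyte levels were thus high in both FV libraries and in TV without ibuprofen, where T cell levels were low. The 25 erythroid genes held 48.6% of counts in FV with ibuprofen, 55.6% in FV without, 65.4% in RP with and 56.9% in RP without. They held 68.0% in TV with ibuprofen, 74.2% in TV without and 61.3% in Non, so that both TV libraries had the highest erythroid shares. Neutrophil genes (15 of 19 past the filter) summed to 199 CPM in TV with ibuprofen and 1330.01 CPM in FV without, the lowest and highest libraries. NK and cytotoxic genes (11 of 11 past the filter) summed to 147 CPM in TV without ibuprofen and 262 in FV with ibuprofen, the lowest and highest libraries. Among the blood cell genes of these lists found in the table, only the neutrophil gene Elane had a library at 0. No skeletal muscle gene passed the filter, and their sum stayed between 1.67 and 3.36 CPM. In the ibuprofen test by edgeR, 16 of 18 T cell, 5 of 15 B cell and 3 of 11 NK and cytotoxic genes were higher at an unadjusted p under 0.05 (background 4.99%). Lower at that limit were 9 of 15 monocyte, 5 of 15 neutrophil and 3 of 19 platelet genes (background 5.57%). Of the 25 erythroid genes and the 76 members, 0 were under it. By the adjusted p, 0 of all 11774 genes passed, so no gene of any list did. The part of cell makeup in the members' differences was not tested.

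A list of subunits and related genes that the symbol pattern leaves out also holds electron carriers such as Cycs and Etfb and the inhibitor Atpif1. Of its 10 measured genes, 8 were above Non in FV without ibuprofen (background 50.6%) and 5 in TV without (background 45.6%), the second share near the background. Cox4i1, a regulatory subunit of complex IV, had 74.5 and 75.998 CPM in FV with and without ibuprofen, 57.96 and 49.9 CPM in RP with and without ibuprofen, 60.5 and 83.3 CPM in TV with and without ibuprofen, and 59.1 CPM in Non. Atpif1, the inhibitor of ATP synthase, had 45.4 and 44.03 CPM in FV with and without ibuprofen, 52.8 and 44.7 CPM in RP with and without ibuprofen, 63.6 and 112 CPM in TV with and without ibuprofen, and 50.7 CPM in Non, with both TV libraries above the rest. Cyc1, cytochrome c1 of complex III, was flat, with 22.2 and 23.7 CPM in FV with and without ibuprofen, 21.1 and 20.2 CPM in RP with and without ibuprofen, 21.1 and 20.2 CPM in TV with and without ibuprofen, and 21.8 CPM in Non. The 46 measured assembly factors, which build the complexes without staying in them, had median differences from Non of 0.013 in FV without and -0.18 in TV without ibuprofen. Sdhaf2, which helps to load the flavin of Sdha, had 20.4 and 18.7 CPM in FV with and without ibuprofen, 15.4 and 15.7 CPM in RP with and without ibuprofen, 16.5 and 20.3 CPM in TV with and without ibuprofen, and 15.3 CPM in Non, and Lrpprc, which stabilises mitochondrial mRNA, had 19.95 and 18.1 CPM in FV with and without ibuprofen, 20.9 and 21.5 CPM in RP with and without ibuprofen, 20.1 and 19.5 CPM in TV with and without ibuprofen, and 20.2 CPM in Non. Coa5, a complex IV assembly factor, departed from the list's median with 101 and 76.98 CPM in FV with and without ibuprofen, 48.9 and 61.4 CPM in RP with and without ibuprofen, 67.2 and 114 CPM in TV with and without ibuprofen, and 53.4 CPM in Non, highest in TV without ibuprofen and FV with ibuprofen as Cox5a was.

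The 13 subunits encoded by mitochondrial DNA had a median difference from Non of -0.30 in FV with and 0.19 in FV without ibuprofen, where the nuclear members stood at 0.18 and 0.25. In RP it was 0.050 with and 0.11 without ibuprofen, beside 0.012 and -0.20 for the nuclear members. In TV it was 0.088 with and 0.22 without ibuprofen, beside 0.11 and 0.29. The medians of both sets thus lay on the same side of Non except in FV with ibuprofen and RP without ibuprofen. The mitochondrial counts per nuclear member count were 2.30 in FV with ibuprofen, 3.22 in FV without, 3.44 in RP with, 3.89 in RP without, 3.29 in TV with, 2.88 in TV without and 3.37 in Non. In FV with ibuprofen all 13 were below FV without ibuprofen, a comparison in which 55.8% of all genes were above 0. Their median was -0.53, while the nuclear members stood at -0.055 and all genes at 0.040. COX1, the catalytic core of complex IV, had 1725 and 2639.6 CPM in FV with and without ibuprofen, 2746 and 2564 CPM in RP with and without ibuprofen, 3034 and 3379 CPM in TV with and without ibuprofen, and 2645 CPM in Non. COX3 had 486 and 596 CPM in FV with and without ibuprofen, 511 and 463 CPM in RP with and without ibuprofen, 547 and 607 CPM in TV with and without ibuprofen, and 471 CPM in Non, and ATP6, of the proton channel of ATP synthase, had 456 and 614 CPM in FV with and without ibuprofen, 561 and 559 CPM in RP with and without ibuprofen, 605 and 698 CPM in TV with and without ibuprofen, and 531 CPM in Non. FV with ibuprofen was the lowest library for COX1 and ATP6, and RP without ibuprofen for COX3. In the tests, 0 of 13 had an unadjusted p under 0.05 for ibuprofen (background 10.6%). Of 21 measured regulators of mitochondrial gene expression, 14 were below Non in FV without (background 49.4%) and 17 in TV without ibuprofen (background 54.3%), where most members were above it. Among these, Gabpb2, a subunit of the ETS factor GABP, had 53.9 and 47.7 CPM in FV with and without ibuprofen, 62.8 and 74.96 CPM in RP with and without ibuprofen, 59.6 and 44.4 CPM in TV with and without ibuprofen, and 65.3 CPM in Non, and Yy1 had 46.6 and 45.1 CPM in FV with and without ibuprofen, 49.01 and 52.9 CPM in RP with and without ibuprofen, 48.9 and 41.5 CPM in TV with and without ibuprofen, and 50.5 CPM in Non. Hif1a, the oxygen-regulated factor, had 42.95 and 77.03 CPM in FV with and without ibuprofen, 34.6 and 39.9 CPM in RP with and without ibuprofen, 38.96 and 66.5 CPM in TV with and without ibuprofen, and 32.7 CPM in Non. Gabpb2 and Yy1 were lowest in TV without ibuprofen and highest in RP without, the library in which most members were lowest.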

How the data were processed

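RNA-seq of PBMCs from 7 groups, 1 library each, was analysed. Per the labels' protocols, total RNA was prepared with an RNeasy kit and libraries with a stranded TruSeq mRNA kit. The submitters' processing notes name mm10, HISAT2 2.1.0 and Trimmomatic 0.38. The sources used here do not name the counting program, its annotation or its use of strand. The table deposited by the authors holds raw read counts per gene, and the authors also deposited FPKM and TPM values, which were used for the implied transcript length and for levels per length. Gene positions came from a GRCm38.p6 gene table, which matched 45679 of 45777 IDs, and promoters from RefSeq (GRCm38.p6).

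The filter was a mean of 1 CPM or more. Counts were scaled with TMM in edgeR 4.0.16 (R 4.3.3), and pairs of libraries were compared by log2 CPM with a prior count of 2 and no test. Ibuprofen and route were fitted together over the 6 collected libraries, and collection without ibuprofen against Non over all 7, with edgeR's quasi-likelihood test and Benjamini-Hochberg adjustment over all genes, leaving 2 residual degrees of freedom. DESeq2 1.42.0, limma-voom (limma 3.58.1), other scalings, filters, pseudocounts and left-out libraries were alternatives. No 2 libraries agreed within sampling noise: over the 21 pairs, the lowest chi-square per degree of freedom was 28.4. P-values reflect variation among these libraries alone, and part of it may be technical.

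Total counts were 47903611 to 63801032, and intervals cover counting error only. Named with values were, per complex, the 2 members with the highest mean CPM, those with the highest and lowest fitted difference for ibuprofen and for collection at a mean of at least 5 CPM, members called in a test, members at least 2-fold apart in a pair compared here (each collected library with Non, or with and without ibuprofen) whose mean in that pair was at least 10 CPM, isoform families, members under the filter, and the 3 genes of highest mean CPM from each other list. Ndufa8, Ndufa9, Ndufb4, Ndufc1, Ndufs1, Ndufs3, Ndufs5, Ndufs7, Ndufv1, Ndufv3, Sdhc, Uqcrfs1, Cox6c, Atp5h, Atp5l and Atp5mpl fall outside that rule and were chosen after their values were seen. A few genes that the rule picks are not reported here. The members and lists were chosen with earlier results of these data known.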

Additional observations from a re-analysis of the deposited data

Results flagged for a closer look

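The members' median log2 difference with minus without ibuprofen was 0.19 (0.1914) in RP and -0.24 (-0.2384) in TV, with opposite signs in the 2 routes, and the difference between routes was not tested. Without ibuprofen, the median difference from Non was 0.25 (0.2517) in FV and 0.29 (0.2885) in TV, against -0.20 (-0.2001) in RP, and this difference between routes was not tested either. Each route is 1 library per condition.

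Of the 11 genes whose symbols match the pattern but that are not annotated as protein-coding, and so were left out, 3 had a level in a collected library above the upper counting bound of Non. Ndufb1-ps reached 17 CPM in TV without ibuprofen, and had 9.17 CPM in Non. Ndufs5-ps reached 2.36 CPM in FV with ibuprofen, and had 0.751 CPM in Non. Atp5l2-ps reached 2.20 CPM in TV without ibuprofen, and had 0.911 CPM in Non. Ndufb1-ps is annotated as a long noncoding RNA, and no Ndufb1 is among the members. Ndufs5-ps and Atp5l2-ps are annotated as pseudogenes, and reads of such copies and of the genes they resemble can be split between them by the counting.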

How the results depend on the processing

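Of 1174 alternative values, 1104 kept their direction and side of the threshold or moved by less than the spread, 45 changed sign and 25 moved further. A median was taken as unmoved within 1 SD over members. A sign change of a median was counted where the value given above was at least 0.1 in size, and that of a gene's fitted difference at any size. No pairing by replicate was possible, because each group is 1 library. The ibuprofen fit pairs libraries by route, and without the route term the members' median was -0.054 and 0 were called. The TPM pseudocount of 0.05 and the alternatives for the lowest library and for the RP and TV signs were chosen after seeing the data.

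Fitted ibuprofen differences that changed sign without both TV libraries were those of Ndufa4 (0.13), Ndufs4 (0.20), Uqcrh (0.14), Uqcr10 (0.10), Uqcr11 (0.26), Cox6a1 (0.076), Cox5a (0.045), Cox7b (0.19), Atp5k (0.21), Ndufa1 (0.17), Cox6b1 (0.071) and Cox7a2 (0.10). Without both RP libraries, Atp5a1 (-0.054) and Atp5e (-0.011) did, and without both FV libraries Cox7b (0.028). Atp5a1 did under DESeq2 (-0.035), under RLE scaling (-0.034) and with erythroid genes left out of the scaling (-0.0068).

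For collection against Non, Sdha changed sign under DESeq2 (0.0066) and RLE scaling (0.00083). With all 6 collected libraries against Non, Ndufa12 (0.033), Sdha (0.065) and Atp5e (0.051) did. With each library without ibuprofen left out in turn, the fold ran from its value without FV to that without RP for Atp5a1 (-0.011 to 0.16), Atp5g1 (-0.058 to 0.46) and Atp5g3 (-0.074 to 0.23), and from without TV to without RP for Atp5e (-0.27 to 0.16), Uqcrh (-0.13 to 0.37), Uqcr11 (-0.056 to 0.62), Cox6a1 (-0.091 to 0.49), Atp5k (-0.018 to 0.54) and Cox7a2 (-0.11 to 0.39). It ran from without TV to without FV for Atp5b (-0.073 to 0.40), and from without FV to without TV for Ndufa12 (-0.33 to 0.037) and Sdha (-0.071 to 0.027). The cause was not tested.

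DESeq2 called 1 member in FV minus RP, 1 in TV minus RP and 2 in TV minus FV, where edgeR called 0. On deposited TPM with a pseudocount of 1, the median less that of all genes changed sign in TV without ibuprofen against Non over all members (-0.064) and in complexes I (-0.15), II (-0.076) and V (-0.031). It also did in TV with ibuprofen against Non over all members (-0.014) and in complex V (-0.015), and for ibuprofen in TV over all members (0.0038) and in complexes I (0.055), II (0.10) and V (0.028). With a pseudocount of 0.05 it was 0.31 over all members in TV without ibuprofen against Non. On that TPM scale, without TMM, members at least 1.5-fold from Non numbered 34 higher in FV with ibuprofen, 0 lower in RP without ibuprofen, 0 higher in both TV libraries, and 5 lower in TV with and 55 lower in TV without ibuprofen. With minus without ibuprofen they numbered 4 higher and 0 lower in FV, 0 higher and 2 lower in RP, and 22 higher and 0 lower in TV. With the pseudocount of 1, the medians of all genes against Non were 0.32 in FV with ibuprofen and 0.16 in RP without. They were -0.34 in TV with and -0.77 in TV without ibuprofen. With minus without ibuprofen, all genes had medians of 0.23 in FV, -0.32 in RP and 0.43 in TV. No share of all genes stands beside these TPM counts, so they are not read as a result about the members. In FV, 2 members were at least 1.5-fold lower with ibuprofen under RLE scaling and 2 with erythroid genes left out. On unscaled totals, 2 members were lowest in RP without ibuprofen (2.63% against 0.881% of all genes). On the same totals, 3 were above 0 in RP and below 0 in TV (3.95% against 1.88%). The depth limits Ndufa4l2, Cox7b2, Cox8b and Cox8c to the floor of 3 counts.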

Other observations

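Glycolysis genes stood highest in both FV libraries and in TV without ibuprofen, the same libraries as the members, with larger medians. The members' medians there were 0.18 in FV with ibuprofen, 0.25 in FV without and 0.29 in TV without. The difference in size between these sets was not tested. The 18 measured genes had a median difference from Non of 0.41 in FV with and 0.78 in FV without ibuprofen, -0.10 in RP with and -0.054 in RP without, and 0.083 in TV with and 0.42 in TV without. In FV minus RP, 12 of 18 were higher and 0 lower at an unadjusted p under 0.05 (background 16.2% higher), and 0 passed the adjusted threshold by edgeR. Pkm, which makes pyruvate, had 328 and 439.6 CPM in FV with and without ibuprofen, 192 and 195 CPM in RP with and without ibuprofen, 226 and 374 CPM in TV with and without ibuprofen, and 203 CPM in Non. Slc2a3, a glucose transporter, had 271 and 181 CPM in FV with and without ibuprofen, 78.9 and 119 CPM in RP with and without ibuprofen, 138 and 346 CPM in TV with and without ibuprofen, and 91.2 CPM in Non, and Aldoa had 146 and 178 CPM in FV with and without ibuprofen, 101 and 101 CPM in RP with and without ibuprofen, 124 and 179.7 CPM in TV with and without ibuprofen, and 102 CPM in Non. All 3 were high in both FV libraries and in TV without ibuprofen, the libraries in which platelet and monocyte genes were high.

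The 18 genes of the tricarboxylic acid cycle had a median difference from Non of 0.19 in FV without and -0.061 in TV without ibuprofen. Cs, citrate synthase, had 63.3 and 66.6 CPM in FV with and without ibuprofen, 53.03 and 55.9 CPM in RP with and without ibuprofen, 53.04 and 57.6 CPM in TV with and without ibuprofen, and 54.4 CPM in Non. Ogdh had 78.005 and 84.9 CPM in FV with and without ibuprofen, 91.1 and 81.2 CPM in RP with and without ibuprofen, 94.7 and 104 CPM in TV with and without ibuprofen, and 86.1 CPM in Non. Of 25 genes for mitochondrial import and cristae, 23 were above Non in FV with ibuprofen (background 54.1%) and 12 in TV without ibuprofen (background 45.6%). Slc25a5, an ADP and ATP carrier, had 107 and 102 CPM in FV with and without ibuprofen, 69.5 and 72.9 CPM in RP with and without ibuprofen, 67.2 and 88.9 CPM in TV with and without ibuprofen, and 72.8 CPM in Non, and Slc25a3, the phosphate carrier, had 73.9 and 87.3 CPM in FV with and without ibuprofen, 72.8 and 67.9 CPM in RP with and without ibuprofen, 63.9 and 68.5 CPM in TV with and without ibuprofen, and 67.5 CPM in Non. Vdac2, a channel of the outer membrane, had 40.6 and 41.1 CPM in FV with and without ibuprofen, 33.2 and 32.03 CPM in RP with and without ibuprofen, 31.7 and 31.9 CPM in TV with and without ibuprofen, and 31.7 CPM in Non. Slc25a5 and Vdac2 were higher in both FV libraries than in all others.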
